A study of Homo sapiens with 12 samples.

Results

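RAD50 and RIF1 were the listed genes of double-strand break repair and damage signaling whose expression rose in U87 cells after 72 h with 3α-THP, about 2-fold against vehicle, and both also rose with F. With P4 neither passed the threshold. By RT-qPCR, the study reports no change of RAD50 with any of these steroids given alone. With equal weight on all arrays, no listed gene passed after adjustment over all tested clusters. The RIF1 arrays with F overlapped those with vehicle. In replicate number 2 the difference of F from vehicle was 0.22 for RAD50 and -0.14 for RIF1 on the log2 scale. The other genes of the set with a measurement stayed under a fold of 1.5 against vehicle with all 3 steroids.

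The set was a list of 37 genes, and a gene counted as measured where the array table had a row annotated with its symbol alone. This gave 34 genes, of 18417 genes in the table with a row of their own. RBBP8, BRCA2 and FANCD2 had no such row and were not analysed here. MDC1 had 2 rows with equal values. The 34 genes fell into 7 role groups, which were the MRN complex and end resection (RAD50, MRE11, NBN and EXO1), the RecQ helicases (BLM and WRN), chromatin signaling and pathway choice (RIF1, TP53BP1, MDC1, RNF8 and RNF168), the checkpoint kinases (ATM, ATR, CHEK1 and CHEK2), homologous recombination (BRCA1, BARD1, PALB2, RAD52, RAD54L, RAD54B, XRCC2 and XRCC3), end joining (XRCC4, XRCC5, XRCC6, LIG4, PRKDC, DCLRE1C and NHEJ1) and the Fanconi anemia pathway (FANCI, FANCM, BRIP1 and SLX4).

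The cells were U87, an established line from a human glioblastoma, so every array came from the same line and the arrays of a treatment are repeats of 1 culture model, labelled as biological replicates. Total RNA went onto 12 Human Gene 1.0 ST arrays (Affymetrix), 3 per treatment, and the treatments were 3α-THP (allopregnanolone, 10 nM), P4 (progesterone, 10 nM), F (finasteride, 100 nM) and V (vehicle, DMSO), all taken at 72 h. The sample characteristics give the DMSO as 0.1%, while the treatment protocol in the same labels gives 10%. All cells, those with V included, were moved to medium with charcoal-stripped serum and no phenol red before treatment. 3α-THP is a reduced metabolite of P4, and finasteride inhibits the reductase that starts this conversion. The dose of F was thus higher than the dose of the other two steroids, and the 3 V arrays served as the control of all of them.

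The deposited values are on a log2 scale per transcript cluster, which is a set of probes read together, and for the listed genes the cluster is annotated with 1 gene. A difference of 1 on this scale means a doubling. Signals of different genes depend on their probes, so levels are compared between treatments and not between genes. The array medians ran from 6.35 to 6.4. Of 7 astroglial and glioma markers, VIM (12.41 to 12.62), CD44 (11.71 to 11.98), NES (5.74 to 6.19), SOX2 (3.88 to 4.26), S100B (3.57 to 3.98) and GFAP (5.99 to 6.39) varied by under 0.5 over the 12 arrays, and TNC (9.54 to 10.28) varied more, with a mean of 9.63 in the arrays numbered 2 and 10.11 in the others. The mean of 3 mesenchymal markers (COL1A1, COL1A2 and FN1) was 12.36 to 12.94, with 12.56 in the arrays numbered 2 and 12.87 in the others. The mean was 3.83 to 4.0 for 5 markers of microglia and other blood cells, 6.07 to 6.45 for 4 of neurons (SNAP25 at 8.45 to 8.89), 4.54 to 4.79 for 3 of oligodendrocytes, 4.14 to 4.36 for 3 of epithelium and 4.51 to 4.78 for 3 of endothelium. No marker of these lists passed the threshold used below in any comparison, beside at most 0.679% of all clusters.

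A double-strand break is sensed by the MRN complex, which holds the ends and activates the kinase ATM. ATM phosphorylates histone H2AX, MDC1 binds this mark, and the ubiquitin ligases RNF8 and RNF168 then prepare the chromatin for 53BP1. 53BP1 works with RIF1 to protect ends from resection and so favors end joining, in which Ku, DNA-PK and ligase IV seal the break. BRCA1, together with resection nucleases, favors homologous recombination, which copies from the sister chromatid and is mostly used in S and G2 phase. Glioblastoma is treated with radiation and alkylating drugs, both of which damage DNA, and this is why these genes are studied in glioma cells.

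The sequences before the annotated starts of RAD50 and RIF1 are shown because these genes were the ones that rose. They are the 250 bases before the start on the + strand, from RefSeq (GRCh38.p14), at chr5:132556727-132556976 for RAD50 and at chr2:151409652-151409901 for RIF1. Capitals mark matches to TGACG, the short form of the cAMP response element, or to CCAAT, on either strand.
RAD50: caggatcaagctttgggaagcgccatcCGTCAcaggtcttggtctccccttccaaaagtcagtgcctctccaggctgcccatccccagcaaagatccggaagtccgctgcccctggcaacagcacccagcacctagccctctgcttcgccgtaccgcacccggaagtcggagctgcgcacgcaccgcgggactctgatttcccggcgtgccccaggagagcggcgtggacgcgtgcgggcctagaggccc
RIF1: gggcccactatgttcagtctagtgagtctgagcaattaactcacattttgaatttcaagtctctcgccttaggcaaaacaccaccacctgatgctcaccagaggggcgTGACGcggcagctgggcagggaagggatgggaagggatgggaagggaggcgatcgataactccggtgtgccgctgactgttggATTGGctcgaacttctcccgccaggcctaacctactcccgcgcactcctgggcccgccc
The RAD50 stretch had 66% G and C and held 1 match, to TGACG on the opposite strand, 223 bases before the start. The RIF1 stretch had 58.4% G and C, with TGACG at 142 bases and CCAAT on the opposite strand at 59 bases before the start. Both motifs are common. Of 35116 annotated promoters of the same length, 21.2% held TGACG and 32% held CCAAT. Of the 41 promoter entries of the 28 listed genes that matched the promoter table, 15 (36.6%) held TGACG and 24 (58.5%) held CCAAT. The full element TGACGTCA, which contains TGACG, was in 1.65% of all promoters and in 4 entries of the listed genes (EXO1, LIG4 and XRCC2), and in neither of the 2 stretches above. The E2F letters TTTGGCGC, TTTCCCGC and TTTCGCGC were in 2.32% of all promoters and in none of the 41 entries. A match is a run of letters and no evidence of binding.

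RAD50 is the zinc-hook ATPase that tethers DNA ends within the MRN complex. Its log2 values were 8.46, 8.94 and 8.71 with 3α-THP, 7.66, 7.90 and 8.33 with P4, 8.65, 8.26 and 8.86 with F, and 7.52, 8.04 and 7.48 with V. All arrays with 3α-THP and all with F lay above the highest V array, and the P4 arrays overlapped the V arrays. The group means were 8.71 ± 0.241 with 3α-THP, 7.96 ± 0.339 with P4, 8.59 ± 0.307 with F and 7.68 ± 0.31 with V (SD, n = 3 each). RAD50 was thus 2.04-fold higher with 3α-THP than with V (log2 1.03, SE 0.206, 95% interval 0.58 to 1.47) and 1.88-fold higher with F than with V (log2 0.91, 0.46 to 1.35). The difference with P4 was 0.28 (interval -0.16 to 0.73).

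RIF1 works downstream of 53BP1 at breaks and also sets replication timing. It had log2 values of 8.19, 8.49 and 8.52 with 3α-THP, 7.45, 7.49 and 8.04 with P4, 8.28, 7.67 and 8.44 with F, and 7.11, 7.81 and 7.04 with V. The arrays with 3α-THP were all above the V arrays, whereas the lowest F array lay under the highest V array, and both carried replicate number 2. The means were 8.40 ± 0.183 with 3α-THP, 7.66 ± 0.333 with P4, 8.13 ± 0.411 with F and 7.32 ± 0.424 with V (SD, n = 3 each). RIF1 was 2.11-fold higher with 3α-THP than with V (log2 1.08, SE 0.236, interval 0.57 to 1.59) and 1.75-fold higher with F than with V (log2 0.81, 0.30 to 1.32). With P4 the difference was 0.34 (-0.17 to 0.85).

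**Figure D1:**
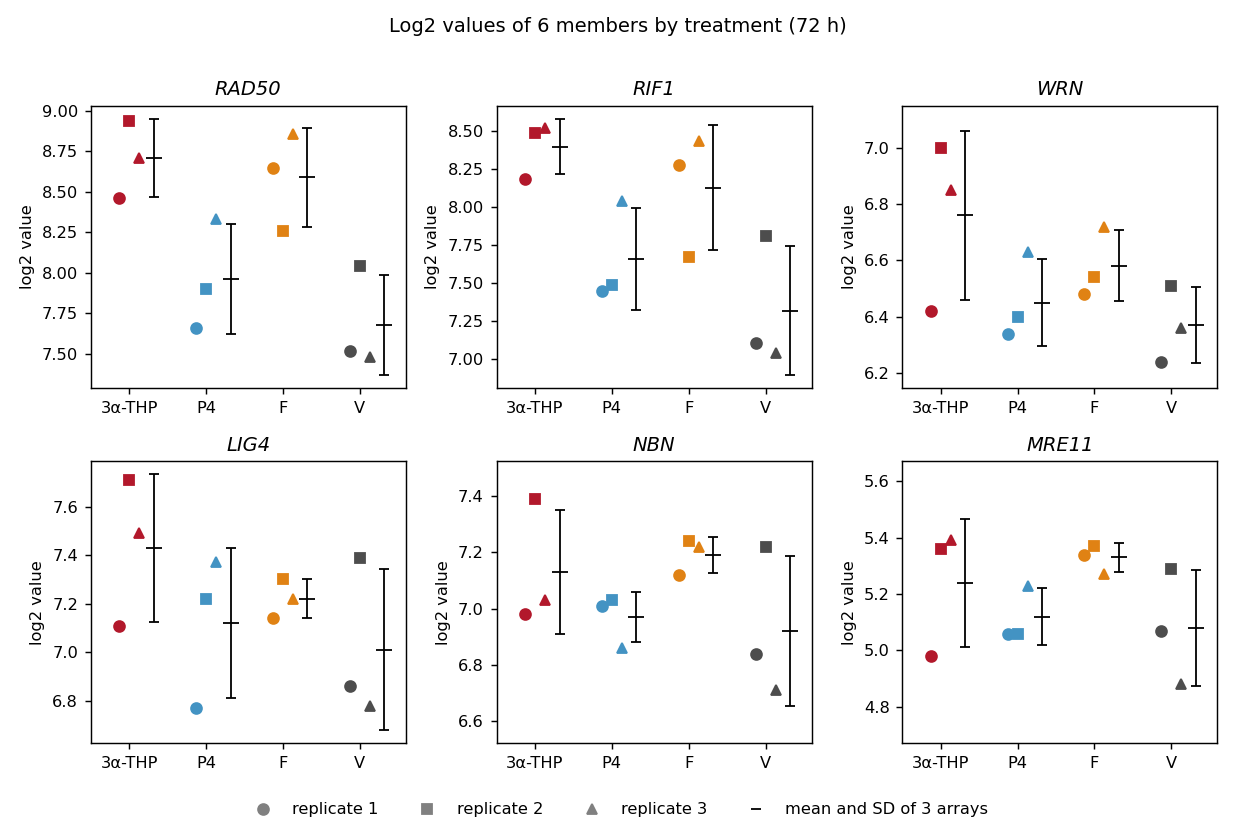
Log2 values (y axis, a separate range per gene) of RAD50, RIF1, WRN, LIG4, NBN and MRE11 on each array with 3α-THP, P4, F and V (x axis), with symbols for the replicate number and bars for the mean and SD of 3 arrays. The RAD50 arrays with 3α-THP and with F and the RIF1 arrays with 3α-THP lie above all V arrays, and in WRN, LIG4, NBN and MRE11 the arrays of all treatments overlap those of V.

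Both genes passed the threshold taken from the methods, which asks for a fold above 1.5 and for p below 0.05 before any adjustment, with 3α-THP and with F. With 3α-THP 2 of 34 genes passed, both higher, beside 0.679% of all 21214 tested clusters (0.627% higher). With F 2 of 34 passed, both higher, beside 0.396% (0.382% higher). With P4 it was 0 of 34, beside 0.0236% of all clusters. After Benjamini-Hochberg adjustment over all clusters in limma no listed gene passed, beside 0.00471% of clusters (1 cluster) with 3α-THP and as many with F. The adjusted p was 0.376 for both genes with 3α-THP, 0.833 for RAD50 with F and 0.898 for RIF1 with F. With array weights, which let limma give less weight to more variable arrays, the adjusted p with 3α-THP was 0.0437 for both genes, and it ran up to 0.889 over the alternatives. With F the lowest adjusted p over the alternatives was 0.0512 for both genes, without the arrays numbered 2, and the highest was 1. RAD50 and RIF1 were chosen by the study for RT-qPCR from these same arrays, so their selection here is not independent evidence. In that RT-qPCR, the study reports, RAD50 changed with neither allopregnanolone nor F given alone but changed with both combined. RIF1 rose there with each given alone. Among its array results the study lists no change of RIF1 with F, unlike the fit used here.

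The arrays of a treatment carry the numbers 1 to 3, and arrays with the same number deviated together, so the differences were also taken within a number. For RAD50 the arrays with 3α-THP exceeded the V array of the same number by 0.94, 0.91 and 1.24 for numbers 1, 2 and 3. With F the RAD50 differences were 1.13, 0.22 and 1.38, and with P4 they were 0.14, -0.14 and 0.85. The rise with 3α-THP was of like size in all 3 numbers, and the rise with F was small in number 2. For RIF1 the differences were 1.08, 0.68 and 1.47 with 3α-THP, 0.34, -0.32 and 1.00 with P4, and 1.17, -0.14 and 1.4 with F. RIF1 with F was therefore higher than V in 2 of 3 numbers. With P4 the highest difference of both genes was that of number 3. Without the arrays numbered 2, RIF1 passed the threshold with P4 as well (log2 0.67, adjusted p = 1 in limma).

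**Figure D2:**
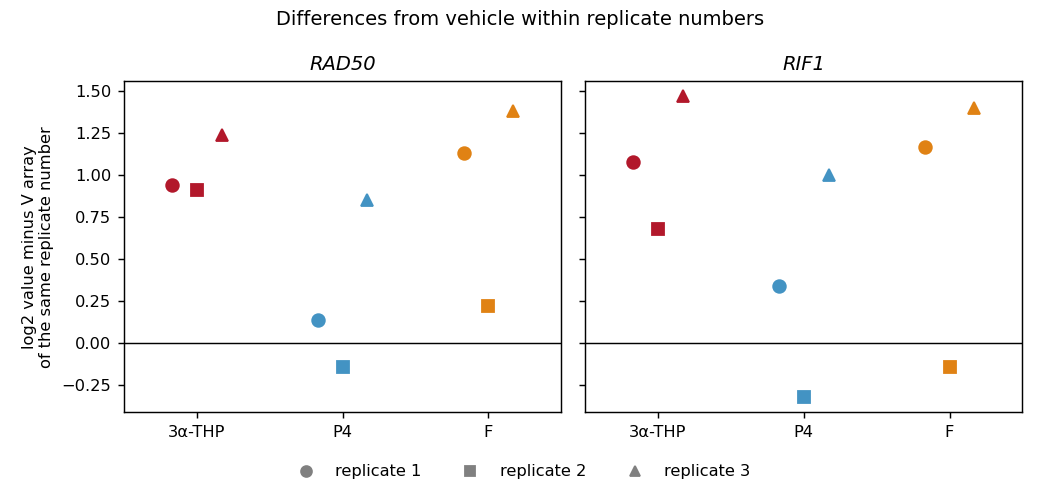
Log2 difference from the V array of the same replicate number (y axis) for RAD50 and RIF1 with 3α-THP, P4 and F (x axis), 1 point per replicate number. All points for 3α-THP lie between 0.68 and 1.47, while those for P4 and F reach down to -0.32 and -0.14 in number 2.

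3α-THP and P4 were given at the same dose and time, so their direct difference was tested. In 3α-THP the A ring is reduced and carries a hydroxyl group where P4 has a ketone. RAD50 and RIF1 were each 1.67-fold higher with 3α-THP than with P4 (log2 0.74 each, intervals 0.30 to 1.19 and 0.23 to 1.25). The arrays of the 2 steroids did not overlap for these 2 of 34 genes, beside 8.22% of all clusters (3.13% higher). RAD50 and RIF1 were also the 2 of 34 genes past the threshold, beside 0.25% of all clusters (0.222% higher). The adjusted p was 0.999 for both genes in limma. Within replicate numbers 1, 2 and 3 the difference was 0.80, 1.04 and 0.38 for RAD50 and 0.74, 1.00 and 0.47 for RIF1, so it was positive in all numbers. WRN was 0.30 higher on the log2 scale with 3α-THP than with P4 (interval 0.00 to 0.61) and LIG4 0.32 higher (-0.10 to 0.73), and neither reached a fold of 1.5.

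Between 3α-THP at 10 nM and F at 100 nM, no listed gene passed the threshold, beside 0.0566% of all clusters. RAD50 differed by 0.12 (interval -0.33 to 0.56) and RIF1 by 0.27 (-0.24 to 0.78), intervals that allow differences of either sign. Between P4 at 10 nM and F at 100 nM, RAD50 had a mean of 7.96 with P4 and 8.59 with F, a log2 difference of -0.62 (interval -1.07 to -0.18), with both means above that of V. It was the 1 of 34 genes past the threshold, beside 0.0519% of all clusters (0.033% lower). The P4 and F arrays of RAD50 overlapped, the adjusted p was 1 in limma, and the call was lost without P4 replicate 1 (-0.47) or without F replicate 3 (-0.49). RIF1 was at -0.47 in the same comparison (-0.98 to 0.04) and passed without P4 replicate 3 (-0.66) or without F replicate 2 (-0.70).

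The partners of RAD50 in the MRN complex moved less. NBN, the subunit that recruits ATM, had values of 6.98, 7.39 and 7.03 with 3α-THP, 7.01, 7.03 and 6.86 with P4, 7.12, 7.24 and 7.22 with F, and 6.84, 7.22 and 6.71 with V. Its difference from V was 0.21 with 3α-THP (SE 0.134) and 0.27 with F (interval -0.02 to 0.56), and the highest V array lay within the F arrays. MRE11, the nuclease subunit, had values of 4.98, 5.36 and 5.39 with 3α-THP, 5.06, 5.06 and 5.23 with P4, 5.34, 5.37 and 5.27 with F, and 5.07, 5.29 and 4.88 with V. The MRE11 difference from V was 0.16 with 3α-THP (SE 0.124) and 0.24 with F (interval -0.03 to 0.51). Within numbers 1, 2 and 3 the difference of F from V was 0.29, 0.02 and 0.51 for NBN and 0.27, 0.07 and 0.38 for MRE11, so in both genes, as for RAD50, number 2 gave the smallest one. EXO1, the exonuclease that extends resection, was at 0.00 with 3α-THP (interval -0.89 to 0.89, and -0.28 to 0.28 with the replicate number as a block).

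WRN and BLM are the RecQ helicases that unwind ends and recombination intermediates. WRN values were 6.42, 7.0 and 6.85 with 3α-THP, 6.34, 6.4 and 6.63 with P4, 6.48, 6.54 and 6.72 with F, and 6.24, 6.51 and 6.36 with V. With 3α-THP the numbers 2 and 3 were above all V arrays, while number 1 lay between them. The difference from V was 0.39 with 3α-THP (SE 0.14, interval 0.08 to 0.69, limma adjusted p = 0.607) and 0.21 with F, both under a fold of 1.5, and within numbers 1, 2 and 3 the difference with 3α-THP was 0.18, 0.49 and 0.49. BLM was 0.26 higher with 3α-THP than with V on the log2 scale, with an SE of 0.407. Blocking on the replicate number, the SE of BLM was 0.132 (interval -0.03 to 0.55).

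Of the chromatin factors, only RIF1 passed the threshold with 3α-THP or F, beside 0.679% and 0.396% of all clusters. TP53BP1, which encodes the 53BP1 protein that recruits RIF1, was at -0.01 with 3α-THP and -0.04 with F. Its 12 arrays lay between 8.53 and 8.71, so that RIF1 rose in cells whose TP53BP1 signal kept within this range. MDC1, the adaptor that reads phosphorylated H2AX, had values of 6.82, 7.20 and 6.70 with 3α-THP, 6.75, 7.02 and 6.77 with P4, 6.86, 7.06 and 6.82 with F, and 6.79, 7.14 and 7.02 with V. Its difference from V was -0.08 with 3α-THP (SE 0.136) and -0.14 with P4 (interval -0.43 to 0.16). RNF8 and RNF168 lay at 0.00 and 0.07 with 3α-THP.

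No checkpoint kinase passed the threshold in any comparison, beside 0.0236% to 0.679% of all clusters. ATM, the apical kinase of double-strand break signaling, had values of 7.86, 7.56 and 8.21 with 3α-THP, 7.64, 7.28 and 8.02 with P4, 7.79, 7.61 and 8.13 with F, and 7.55, 7.46 and 7.57 with V. The F arrays of ATM all lay above the V arrays (log2 difference 0.32). With 3α-THP 1 array lay within the V range (0.35, interval -0.07 to 0.76). Blocking on the replicate number, the ATM interval was 0.12 to 0.57 with 3α-THP and 0.1 to 0.54 with F. The blocked adjusted p was 0.169 and 0.367 in limma. ATR, the kinase that answers to single-stranded DNA, differed by 0.26 with 3α-THP (SE 0.167, and 0.105 with the block) and 0.25 with F. The effector kinase CHEK2 was at 0.01 with 3α-THP and was 1 of 3 listed genes with a mean log2 value under 5, beside FANCM and BRIP1.

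In homologous recombination the differences with 3α-THP ran between XRCC3 at -0.13 (SE 0.0881) and XRCC2 at 0.39 (SE 0.403). BRCA1, which directs breaks to recombination, was at 0.36 (SE 0.421). Blocking on the replicate number, the SE was 0.123 for XRCC2 (interval 0.12 to 0.65) and 0.134 for BRCA1 (0.07 to 0.65), and within numbers 1, 2 and 3 the differences were 0.25, 0.60 and 0.31 for XRCC2 and 0.21, 0.53 and 0.34 for BRCA1. The values of XRCC2 were 6.01, 7.60 and 6.45 with 3α-THP, 6.02, 6.88 and 6.11 with P4, 6.21, 7.02 and 6.25 with F, and 5.76, 7.0 and 6.14 with V. In each treatment the number 2 array stood above the other two by more than the treatments differed.

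In end joining, LIG4, the ligase that seals the break, had the largest difference from V of its group with 3α-THP. Its values were 7.11, 7.71 and 7.49 with 3α-THP, 6.77, 7.22 and 7.37 with P4, 7.14, 7.30 and 7.22 with F, and 6.86, 7.39 and 6.78 with V. The difference from V was 0.42 with 3α-THP (SE 0.19, interval 0.01 to 0.84, limma adjusted p = 0.674) and 0.21 with F, and within numbers 1, 2 and 3 it was 0.24, 0.32 and 0.71 with 3α-THP. LIG4 passed the fold of 1.5 without V replicate 2 (log2 0.61) and without 3α-THP replicate 1 (0.59). NHEJ1, which encodes the XLF protein that bridges ends for ligase IV, was the lowest of all 34 genes with 3α-THP (-0.18, interval -0.37 to 0.00), and its F arrays, at 6.85, 6.83 and 6.77, lay below its V arrays, at 7.08, 6.93 and 6.86. XRCC6, the Ku70 subunit of the end-binding Ku ring, gave 8.03, 8.44 and 8.09 with 3α-THP, 7.94, 8.02 and 8.07 with P4, 8.04, 8.35 and 8.10 with F, and 7.96, 8.53 and 8.13 with V. Its difference with P4 was -0.20 (interval -0.52 to 0.12), of which number 2 gave -0.51 and the others -0.01 and -0.06.

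In the Fanconi anemia group, whose products repair crosslinks between strands, the differences with 3α-THP ran between SLX4, a nuclease scaffold, at -0.07 (SE 0.076) and BRIP1, the helicase that binds BRCA1, at 0.38 (SE 0.324). No gene of this group passed the threshold in any comparison, beside 0.0236% to 0.679% of all clusters.

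**Figure D3:**
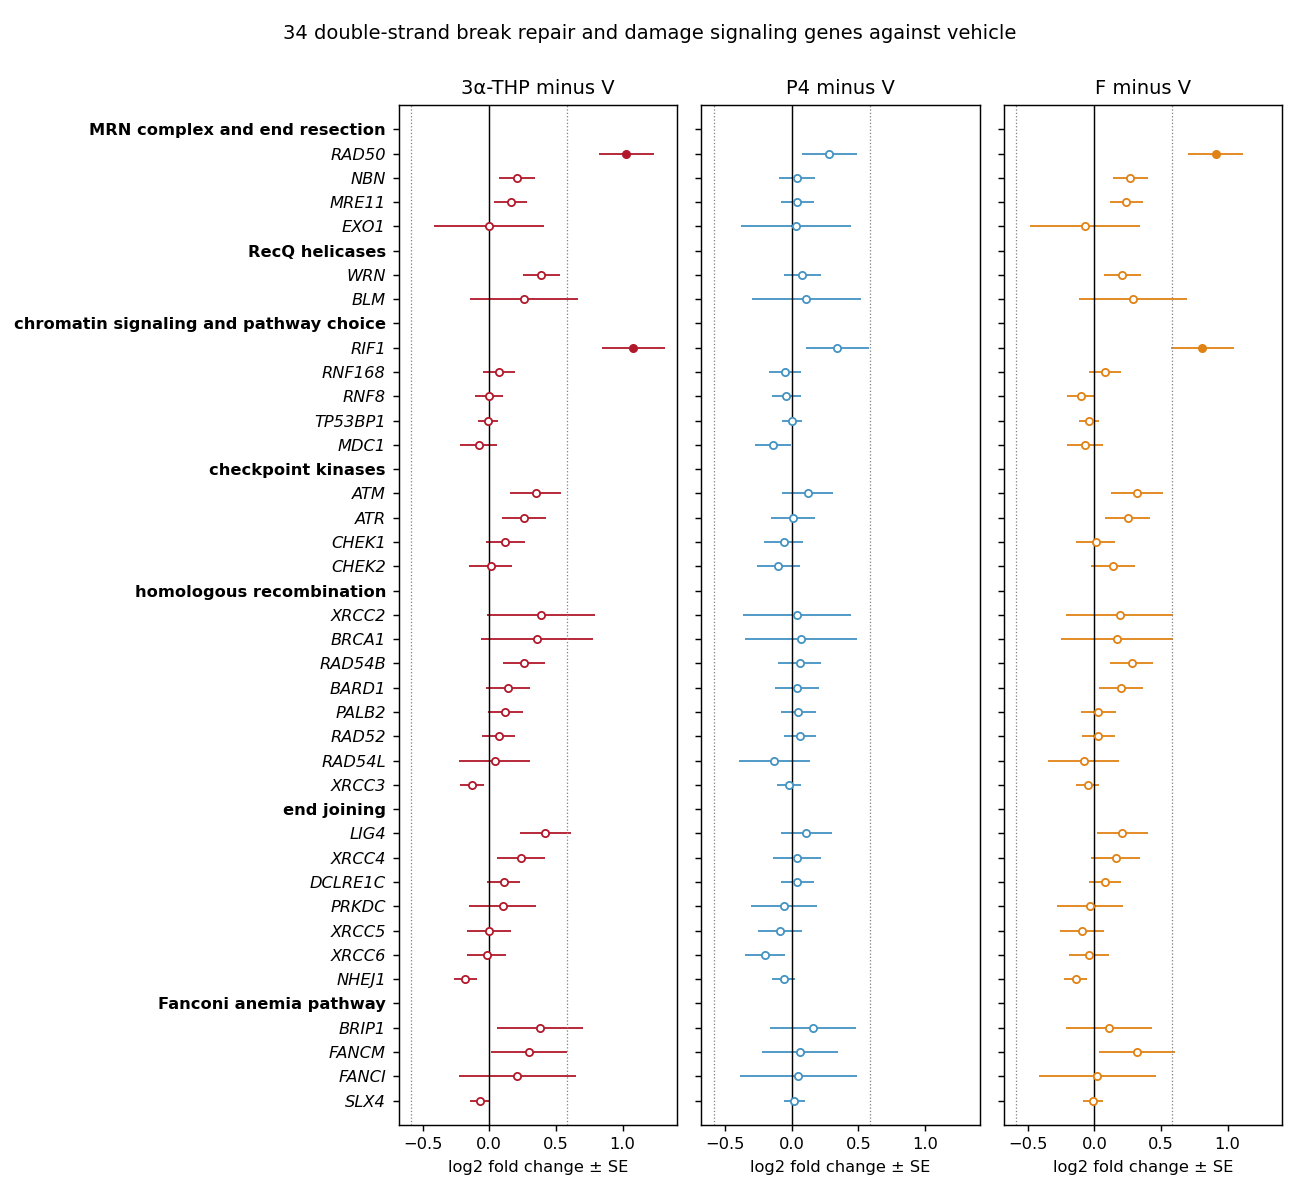
Log2 fold change against V with its SE (x axis) for the 34 genes by role group (y axis) with 3α-THP, P4 and F, from limma over all 12 arrays. Filled points, which are RAD50 and RIF1 with 3α-THP and with F, passed a fold over 1.5 (dotted lines) and an unadjusted p under 0.05.

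Apart from RAD50 and RIF1, the differences of the 32 genes from V lay between -0.18 and 0.42 with 3α-THP, between -0.20 and 0.16 with P4 and between -0.14 and 0.32 with F, with SEs of 0.076 to 0.439. With 3α-THP 26 of these 32 differences were above 0, with a median of 0.122, with P4 21 were above 0 (median 0.036), and with F 21 (median 0.08). Over all 34 genes the median was 0.135 with 3α-THP, against -0.027 over all tested clusters, of which 41.1% lay above 0. It was 0.036 with P4, against -0.013, and 0.096 with F, against -0.021. By role, the medians with 3α-THP were 0.185 for the MRN complex and resection, 0.323 for the 2 RecQ helicases, 0.003 for the chromatin factors, 0.191 for the kinases, 0.132 for homologous recombination, 0.103 for end joining and 0.254 for the Fanconi anemia group. The median over the 34 genes was -0.018 with 3α-THP when replicate 2 of that treatment was left out and 0.291 without V replicate 2. With P4 it was -0.066 without V replicate 1 and 0.131 without V replicate 2, and with F it was 0.00 and 0.259 without the same arrays.

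By the unadjusted p alone, 4 of 34 genes passed with 3α-THP (RAD50, RIF1, WRN and LIG4), beside 7.34% of all clusters (3.25% higher), 2 with F, beside 4.69% (2.58% higher), and 0 with P4, beside 1.82%. With the replicate number as a block, 11 passed with 3α-THP, of which 10 were higher (RAD50, RIF1, WRN, ATM, ATR, BRCA1, XRCC2, XRCC4, LIG4 and BRIP1) and NHEJ1 was lower, beside 13.4% of all clusters (5.49% higher and 7.91% lower). With F the block gave 7 (RAD50, RIF1, NBN, BLM, ATM, ATR and BARD1), beside 8.54%, and with P4 0, beside 3.8%. The block left the counts past the fold of 1.5 at 2 with 3α-THP, beside 0.74% of all clusters. The blocked counts were 2 with F, beside 0.424%, and 0 with P4, beside 0.0283%. The blocked adjusted p with 3α-THP was 0.0731 for RAD50 and 0.0822 for RIF1 in limma, so no gene passed the adjustment with the block either. Arrays that did not overlap V were found for 2 of 34 genes with 3α-THP (RAD50 and RIF1), beside 11.3% of all clusters, and for 3 with F (RAD50, ATM and NHEJ1), beside 9.11%. For P4 it was 0, beside 5.44%.

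Most of the listed genes varied more with the replicate number than with the treatment. A median of 51.1% of a gene's spread over the 12 arrays went with the replicate number and 14.2% with treatment, against 28.7% and 20.7% over all tested clusters. In 26 of 34 genes (76.5%) the share of the replicate number was the larger, against 56.9% of all clusters. Neither share was corrected for its number of groups, so spread between single arrays also adds to both. RAD50 and RIF1 stood at the other end, with 75.1% by treatment and 5.57% by replicate number for RAD50 and 67.9% and 4.28% for RIF1. NHEJ1 (49.7% by treatment) and WRN (46.4%) came next.

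**Figure D4:**
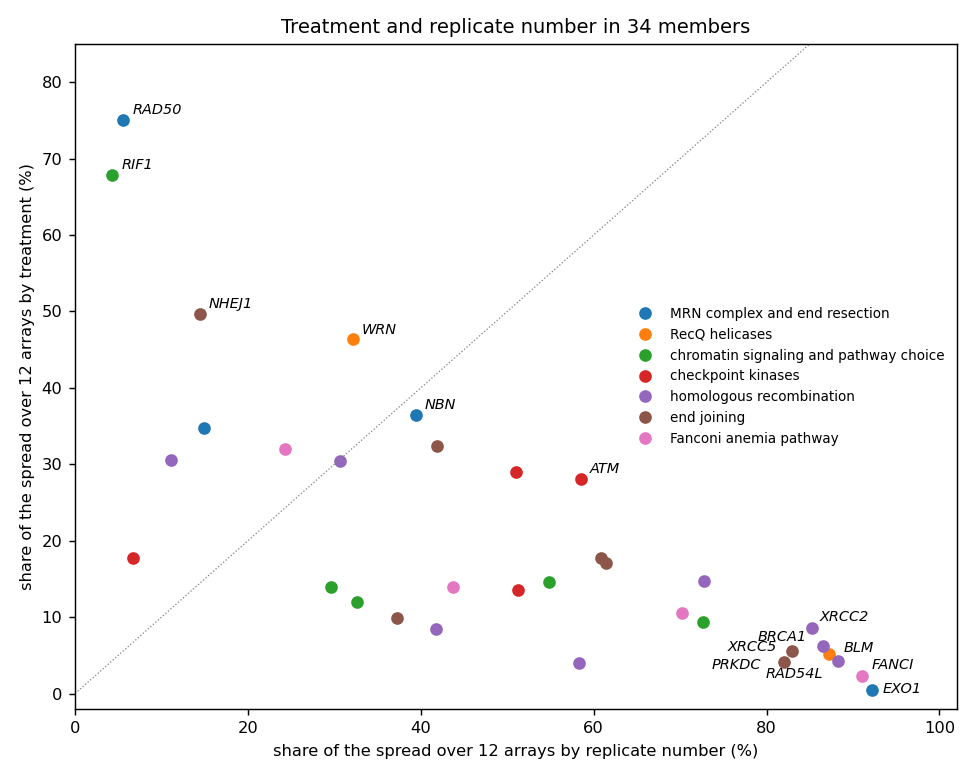
Share of each gene's spread over 12 arrays that went with treatment (y axis, percent) against the share that went with replicate number (x axis, percent), 1 point per gene, colored by role group, with a dotted line where both are equal. RAD50 (75.1% by treatment) and RIF1 (67.9%) lie at the upper left and EXO1 (92.2% by replicate number) and FANCI (91.1%) at the lower right.

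The genes named here were chosen after their values were seen. EXO1 had values of 5.15, 6.70 and 5.46 with 3α-THP, 5.52, 6.27 and 5.60 with P4, 5.40, 6.45 and 5.23 with F, and 5.37, 6.38 and 5.55 with V. BRCA1 gave 5.77, 7.41 and 6.16 with 3α-THP, 5.89, 6.60 and 5.99 with P4, 5.88, 6.87 and 6.03 with F, and 5.56, 6.88 and 5.82 with V. In both genes the 4 arrays numbered 2 lay above all 8 others. This held for 9 of 34 genes (EXO1, BLM, BRCA1, BARD1, RAD54L, XRCC2, XRCC5, PRKDC and FANCI), or 26.5%, against 6.2% of all clusters, and no listed gene had its number 2 arrays below all others, against 4.2% of all clusters. The mean of the number 2 arrays exceeded that of the others by 1.04 for EXO1, 1.02 for BLM, 1.05 for BRCA1, 1.01 for XRCC2, 1.06 for FANCI (the monoubiquitinated partner of FANCD2), 0.66 for RAD54L and 0.59 for PRKDC. ATM ran the other way, with its number 2 arrays lower by 0.37 on average.

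**Figure D5:**
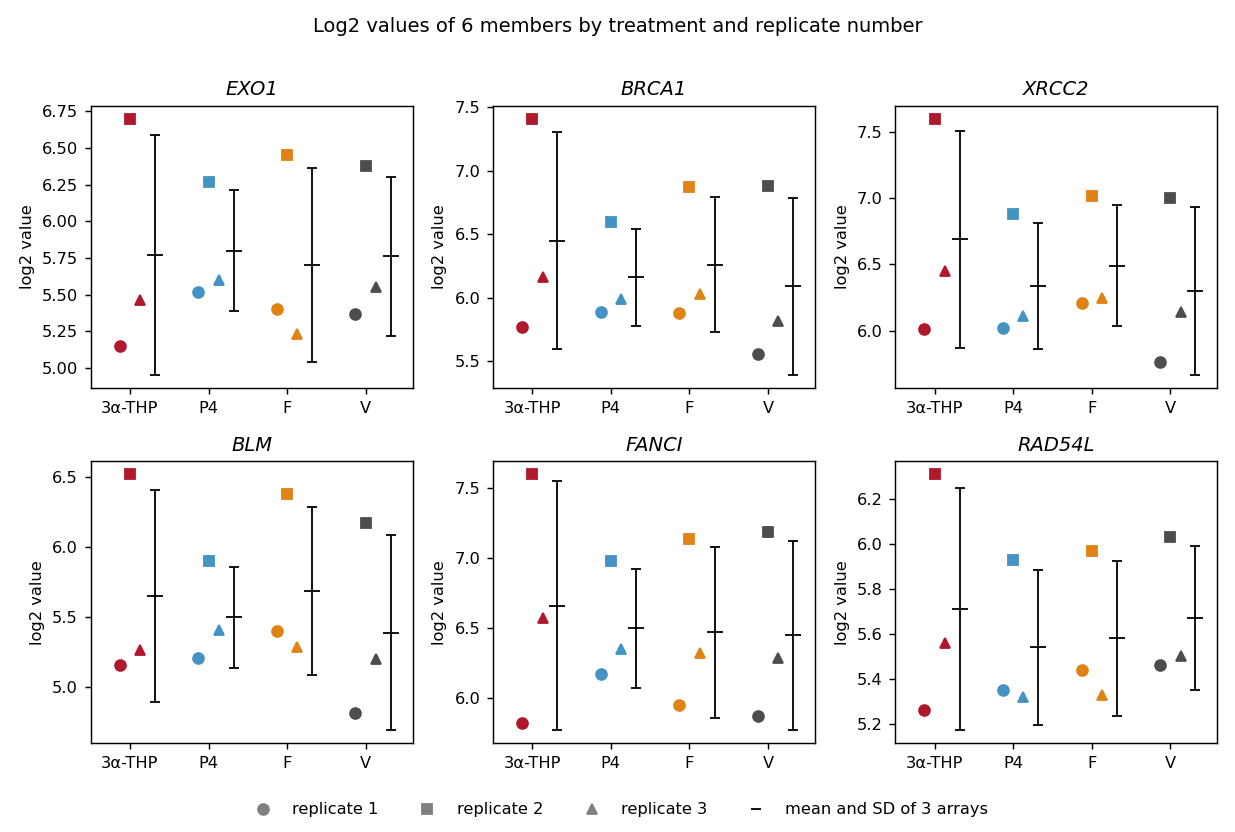
Log2 values (y axis, a separate range per gene) of EXO1, BRCA1, XRCC2, BLM, FANCI and RAD54L on each array with 3α-THP, P4, F and V (x axis), with symbols for the replicate number and bars for the mean and SD of 3 arrays. In each gene and treatment the array numbered 2 (squares) is the highest, and for EXO1 it exceeds the mean of numbers 1 and 3 by 1.04 on average.

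Proliferation markers moved with the same arrays. Of 20 such genes, 20 were higher in the arrays numbered 2, 19 of them without overlap, with a median difference of 1.01. MKI67, the Ki-67 antigen, had a mean of 9.34 in number 2 and 8.21 in the others. The mean of the 20 markers was 6.81, 8.33 and 7.40 with 3α-THP, 6.96, 7.79 and 7.12 with P4, 6.95, 7.87 and 7.08 with F, and 6.81, 8.0 and 7.15 with V. Of the arrays numbered 2 the one with 3α-THP was the highest, and it was also the highest for XRCC2, BRCA1, BLM and FANCI. The part of proliferation in the levels of the listed genes was not tested. In bulk RNA, a larger share of dividing cells and more RNA per cell cannot be told apart. RAD50 and RIF1 differed by 0.91 and 0.68 between the 3α-THP and V arrays numbered 2. Between the F and V arrays of that number they differed by 0.22 and -0.14. Without the arrays numbered 2, they differed by 1.09 and 1.28 between 3α-THP and V and by 1.25 and 1.29 between F and V.

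Beyond the set, 62 of 71 other genes of double-strand break repair were measured. With 3α-THP 1 of the 62 passed the threshold, beside 0.679% of all clusters. It was ETAA1, an activator of ATR, at 0.71 (SE 0.214, limma adjusted p = 0.488), and none was lower past it. With F again only ETAA1 passed (0.63), beside 0.396%, and with P4 none did (ETAA1 at 0.12), beside 0.0236%. ETAA1 also passed between 3α-THP and P4 (0.59), beside 0.25%. GEN1, the Holliday junction resolvase, was at 0.61 with 3α-THP (SE 0.316) and passed with the replicate number as a block. HELQ, a helicase of crosslink repair, was at 0.24 (SE 0.0909). The median over these 62 genes was 0.009 with 3α-THP, -0.002 with P4 and 0.01 with F.

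The p53 target genes, which rise in cells with functional p53 after DNA damage, did not pass the threshold in any comparison (0 of 25 measured). The share of all clusters past it was at most 0.679%, with 3α-THP. With 3α-THP the median of the p53 targets was -0.077, with 4 of 25 above 0. Their genes with the smallest p were PHLDA3, an inhibitor of Akt, at -0.29 (SE 0.0786, limma adjusted p = 0.415) and EDA2R, a death receptor, at -0.21 (SE 0.119). Of the 20 proliferation markers none passed either, with a median of 0.166 with 3α-THP, -0.023 with P4 and -0.009 with F, and 19 of 20 above 0 with 3α-THP. TOP2A, the topoisomerase of dividing cells, was at 0.51 with an SE of 0.444, and CCNE1 (cyclin E1) at 0.23 with an SE of 0.224.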

How the data were processed

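RNA of U87 cells was hybridized to 12 Affymetrix Human Gene 1.0 ST arrays. The deposited values are log2 signals per transcript cluster, made by the authors and, per the submitters' processing notes, with Affymetrix Expression Console 1.4. The methods name quantile normalization and robust multiarray averaging, and which of these made the table is not given in the sources used here. Depth has no meaning for arrays, and the number of arrays (3 per group) limits the precision.

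Of 33297 clusters, 21214 with a gene name were tested (19460 with 1 gene, 1754 with several). Groups and replicate numbers came from the sample titles. Linear models were run in limma 3.58.1 under R 4.3.3 (lmFit and eBayes, prior degrees of freedom 4.73), with 1 mean per treatment over all 12 arrays and no block, as the methods are unpaired, and 6 contrasts. The threshold was that of the methods, with Benjamini-Hochberg adjusted p-values over all clusters beside it, and intervals are at 95%. p-values measure only the spread between these arrays. The fit was tested on simulated data with independent noise for each array. They held no effect of a replicate number, so the fit was not tested under the pairing of these arrays. A share of spread is the sum of squares of treatment or of replicate number over the total, not corrected for the number of groups.

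Pairing was checked by correlating deviations from group means over all clusters. Among same-numbered arrays the 18 correlations ran between 0.132 and 0.631, so the numbers were taken to pair the arrays. The pairing entered the block and the differences within numbers, while the main fit left it out. The median of the 36 other correlations was -0.245. Because deviations from a group mean cancel out within a treatment, these others follow from the same-numbered ones and are no separate support. The labels call the replicates biological and do not say what a number shares.

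Genes were measured by the row with the highest mean. Per-array values are given for genes past the threshold in any contrast and for the 4 smallest p in each contrast with V, and fold changes for the extremes of each role group with 3α-THP and, in the further lists, for genes past the threshold and the 2 smallest p. Other genes named were chosen after their values were seen. The gene set and lists were chosen with earlier results of these data known. Alternatives were the block, a fit of the compared groups alone, array weights, other thresholds, dim clusters left out, and each array left out. Promoters are from RefSeq (GRCh38.p14). Figures were drawn with matplotlib 3.10.9.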

Additional observations from a re-analysis of the deposited data

How the results depend on the processing

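With only adjusted p-values under 0.05, the number of genes past the threshold was 0 with 3α-THP, 0 with F, 0 between 3α-THP and P4 and 0 between P4 and F. A fold of 1.2 in place of 1.5 gave 4 with 3α-THP (RAD50, RIF1, WRN and LIG4), beside 4.39% of all clusters. Leaving out 1 array at a time gave 2 to 4 with 3α-THP, beside 0.49% to 1.13% of all clusters. It was 4 without V replicate 2 (RAD50, RIF1, LIG4 and BRIP1), beside 0.985%. Between P4 and F it gave 0 to 2. The count was 0 without P4 replicate 1 (beside 0.0896%) or F replicate 3 (0.0519%). It was 2 without P4 replicate 3 (0.269%) or F replicate 2 (0.311%). The counts of the other contrasts did not change. They stayed at 2 with F, beside 0.207% to 0.787%, and at 2 between 3α-THP and P4, beside 0.118% to 0.636%. They stayed at 0 with P4, beside 0.0189% to 0.0896%, and at 0 between 3α-THP and F, beside 0.033% to 0.259%. Without the arrays numbered 2, an alternative chosen after seeing the data, 1 gene passed with P4 (RIF1, 0.67, beside 0.189% of all clusters) and 2 between P4 and F (RAD50 and RIF1, RIF1 at -0.62, beside 0.245%). The cause was not tested.

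Over the single arrays left out, RAD50 ran between 0.91 and 1.21 with 3α-THP and between 0.77 and 1.09 with F, and RIF1 between 0.94 and 1.32 and between 0.65 and 1.05. The difference of 3α-THP from F changed sign. For RAD50 it was -6.5e-05 without 3α-THP replicate 2, -0.047 without F replicate 2 (range -0.047 to 0.25) and -0.17 without the arrays numbered 2, and for RIF1 it was -0.012 without the arrays numbered 2. The replicate block, for which RAD50 stayed at 1.03 and RIF1 at 1.08 with 3α-THP, changed no call of the 34 genes against the fold threshold. What limits these comparisons is 3 arrays per treatment with a replicate number that went with most of the spread of many of the genes. SEs reached 0.439 without the block and 0.224 with it, and CHEK2, FANCM and BRIP1 had mean log2 values under 5.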

Other observations

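The genes of excision and mismatch repair, which mend damaged or mispaired bases on 1 strand, form a separate list. Of 34 listed genes 29 were measured, and 0 passed the fold threshold in any of the 6 comparisons. The share of all clusters past it ran between 0.0236% with P4 and 0.679% with 3α-THP. With 3α-THP their differences from V lay between -0.24 and 0.17 with a median of -0.028, with P4 the median was -0.03 and with F it was -0.019. The smallest p with 3α-THP belonged to APEX1, the main abasic site endonuclease, at -0.22 (SE 0.108), and ERCC2, the XPD helicase of nucleotide excision repair, at -0.15 (SE 0.0766). By the unadjusted p alone in limma, 0 of 29 passed with 3α-THP, beside 7.34% of all clusters. It was 0 with P4, beside 1.82%, and 1 with F, beside 4.69%.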
